A study of Mus musculus with 52 samples.

Results

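Actin cytoskeleton and lamin genes were followed in single daughter cells of mouse erythroid progenitors. The group holds 10 genes of the 49466 in the count tables: Actb, Cfl1, Tmsb4x, Tmsb10, Pfn1, Arhgdib, Coro1a, Lgals1, Vim and Lmna. They were selected on measured values of these libraries, namely their level in cells rich in Mpo or in Gata1 transcripts, the likeness of the 2 daughters of a founder, the treatment difference of Tmsb4x and a difference between sets of plate columns. Those 4 contrasts are therefore given as descriptions with no p-value for the 10 genes, and where calls are counted the share over all genes stands beside them. All 10 symbols were found once in both tables.

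The cells descended from burst-forming unit-erythroid (BFU-E) cells, progenitors that form large red cell colonies. Their source was the fetal liver of C57/Bl6J embryos, taken at day 14.5. Cells carrying CD3e, CD45R, Ly-6G, CD11b, Ter119, Sca-1, CD16/32 or CD41 had been removed, and the rest were sorted with antibodies to Kit (CD117), CD71 and CD24. A single founder per well was kept for 16 hours in PCM medium, either without addition (untreated) or with 100 nM dexamethasone, a synthetic glucocorticoid. Founders that had divided once gave 2 daughters, and the RNA of each daughter was sequenced as its own library, which made 13 untreated and 13 dexamethasone pairs. All groups shared the strain, the sort and the medium, and no animal is named in the labels, so founders may share an embryo or a litter.

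Actin monomers assemble into filaments that give a cell its shape and its force. Thymosins (Tmsb4x, Tmsb10) bind free monomers, profilin (Pfn1) feeds them to growing filament ends, and cofilin (Cfl1) severs and takes apart old filaments. Coronin 1A (Coro1a) and the product of Arhgdib are known as proteins of white blood cells, vimentin (Vim) forms intermediate filaments, and lamin A/C (Lmna) forms part of the meshwork under the nuclear membrane. Developing red cells replace much of the ordinary cytoskeleton with a spectrin-based membrane skeleton.

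The 250 bases before an annotated start are shown for the 3 genes whose levels set the cells apart most. They come from RefSeq on GRCm38.p6 and lie on the minus strand in each case. Capitals mark matches to GATAA, the core of the motif bound by GATA factors, or to its complement TTATC. The windows lie at chrX:167209219-167209468 for Tmsb4x, chr7:126704817-126705066 for Coro1a and chr3:88503353-88503602 for Lmna. For Coro1a and Lmna this is the first listed window, and it lies within the gene span given below. A second window of each, at chr7:126704221-126704470 and chr3:88493313-88493562, is not shown.
Tmsb4x: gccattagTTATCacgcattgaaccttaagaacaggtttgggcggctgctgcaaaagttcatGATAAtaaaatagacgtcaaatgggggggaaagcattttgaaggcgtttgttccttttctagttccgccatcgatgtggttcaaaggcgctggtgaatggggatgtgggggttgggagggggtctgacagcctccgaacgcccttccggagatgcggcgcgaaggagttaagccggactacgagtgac
Coro1a: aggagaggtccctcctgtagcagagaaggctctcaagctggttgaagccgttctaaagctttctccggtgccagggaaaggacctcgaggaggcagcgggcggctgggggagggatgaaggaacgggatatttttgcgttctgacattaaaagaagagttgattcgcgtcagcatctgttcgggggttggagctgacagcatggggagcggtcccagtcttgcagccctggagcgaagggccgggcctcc
Lmna: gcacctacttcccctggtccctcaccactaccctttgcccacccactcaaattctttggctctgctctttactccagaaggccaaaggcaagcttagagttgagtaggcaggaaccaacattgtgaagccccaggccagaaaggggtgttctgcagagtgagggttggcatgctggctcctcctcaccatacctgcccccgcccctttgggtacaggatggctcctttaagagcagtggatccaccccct
The Tmsb4x window held GATAA 2 times, and these windows of Coro1a and Lmna held neither GATAA nor GAGGAA, the core of a PU.1 motif, on either strand. Over windows of 300 bases, which add the 50 bases after the start, 25.4% of 32851 RefSeq promoters held GATAA and 28.3% held GAGGAA. Promoter windows were found for 8 of the 10 genes, all but Actb and Lgals1. A match describes letters only, and no binding was measured.

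Of the 52 libraries, 48 held 210383 to 5606500 counts (median 2773001) and detected 3886 to 9473 genes. The other 4, all untreated, held 0 to 13575 counts and were left out of the main comparisons. Pairs 4, 7 and 12 of the untreated group therefore entered comparisons of pairs only in the settings with all pairs. Levels are CPM, the counts of a gene scaled to its library total, and differences are of log2(CPM + 1). A cell was called Mpo-high when Mpo, the myeloperoxidase gene of granulocyte precursors, reached 10 CPM and exceeded Gata1, and Gata1-high when Gata1, the erythroid transcription factor gene, did so over Mpo. This put 12 cells of 7 pairs in the first class and 36 cells of 20 pairs in the second. In 16 pairs both daughters were Gata1-high, in 5 both were Mpo-high and in 2 they were mixed. The 10 cells of the pairs with 2 Mpo-high daughters held 8034 to 41906 CPM of the 13-gene granulocyte and monocyte list. That list includes Mpo, so the sum is not independent of the class rule. In dexamethasone pair 6, cell 2, Mpo made up 23619 of 26903 CPM. Over the 12 Mpo-high cells the medians were 1305 CPM for Prtn3, 1059 for Ctsg, 297 for Spi1 and 144 for Lyz2. They were 0.463 CPM for Elane and 0 for Ms4a3, Cebpa, Cebpe, Csf3r and Ly6c2, with Csf1r and Irf8 between Lyz2 and Elane.

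The 2 Mpo-high daughters of the mixed pairs went against their class in other markers. In dexamethasone pair 9, cell 1 held 556 CPM of Mpo against 477 of Gata1, and its erythroid markers summed to 10645 CPM. In dexamethasone pair 12, cell 1 had the smallest total of the 48 libraries and held 5633 CPM of Mpo, but also 7596 CPM of Klf1 and 14.3 CPM of Prtn3. Doublets were not searched for. Differences between classes are therefore given with these cells and also between cells of concordant pairs, a choice made after the data were seen. In these libraries the classes also differed in detected genes, with medians of 6924 in Mpo-high and 8002 in Gata1-high cells.

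Tmsb4x, on X at 167207093 to 167209315, encodes thymosin beta 4. Its level ran from 33.2 to 3211 CPM (median 1918) in the 12 Mpo-high cells and from 1.40 to 425 CPM (median 46.8) in the 36 Gata1-high cells. The 10 cells of the concordant Mpo-high pairs all lay above every Gata1-high cell, at 1018 to 3211 CPM, and the 2 others lay within the Gata1-high range. On the log2(CPM + 1) scale the means were 10.07 ± 2.14 (SD, n = 12 cells) and 5.68 ± 1.74 (SD, n = 36 cells), a difference of 4.40, and 4.98 between cells of concordant pairs.

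Coro1a, on 7 at 126699773 to 126707787, encodes an actin-binding protein of white blood cells. It ran from 0 to 1919 CPM (median 989.7) in Mpo-high and from 0 to 738 CPM (median 1.76) in Gata1-high cells. In the concordant Mpo-high pairs no cell was below 555 CPM, while 25 of the 36 Gata1-high cells were below 10 CPM and 7 had no count. The difference of means was 5.91, the largest in size of the 10 genes, and 6.90 between concordant pairs. The Mpo-high cells overlapped the Gata1-high cells, whose upper end was formed by both daughters of dexamethasone pairs 8 and 11.

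Lmna, on 3 at 88480147 to 88509956, went the other way. It ran from 0.63 to 1304 CPM (median 1.82) in Mpo-high cells and from 0.32 to 2086 CPM (median 347) in Gata1-high cells, a difference of −4.04, and −4.56 between concordant pairs. In 4 of the 5 concordant Mpo-high pairs both daughters were at or below 2.15 CPM. The exception was dexamethasone pair 10, at 188 and 108 CPM, whose daughters summed to 585 and 472 CPM over the 6 stromal markers, against a median of 0.153 CPM in Mpo-high cells. Their 6 mast cell and basophil markers summed to 539 and 450 CPM, but those of dexamethasone pair 6, with Lmna at 0.79 and 0.86 CPM, summed to 361 and 1154 CPM. The part of these markers in its Lmna level was not tested. The highest values of all, 1304 and 2086 CPM, belonged to the daughters of mixed pair 9.

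Arhgdib, on 6 at 136923655 to 136941899, had medians of 2056 CPM in Mpo-high and 675 CPM in Gata1-high cells. The 10 concordant Mpo-high cells, at 1495 to 4640 CPM, lay above all Gata1-high cells, at 237 to 1473 CPM. Cell 1 of dexamethasone pair 12 lay below all of them at 42.8 CPM. The difference of means was 1.32, and 1.94 between concordant pairs.

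Tmsb10, the second thymosin gene, on 6 at 72957347 to 72958748, had medians of 129 and 41.0 CPM and a difference of 1.78 (2.18 between concordant pairs), with wide overlap between 9.51 to 1088 and 7.77 to 184 CPM. Lgals1, on 15 at 78926725 to 78930465, encodes galectin 1, a sugar-binding protein. It had medians of 646 and 275 CPM and a difference of 1.10, and 1.44 between concordant pairs. Its highest cells, at 5068 and 2234 CPM, were the daughters of dexamethasone pair 10, the pair with stromal markers. Vim, on 2 at 13573927 to 13582826, had medians of 86.1 and 7.84 CPM and a difference of 1.87, and 2.35 between concordant pairs. It ranged from 0 to 525 CPM in Mpo-high and from 0 to 668 CPM in Gata1-high cells, so its classes overlapped over nearly the whole range.

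Actb, Cfl1 and Pfn1, the general machinery of actin turnover, were abundant in every cell of both classes. Actb, on 5 at 142903115 to 142906754, had medians of 7830 CPM in Mpo-high and 7383 CPM in Gata1-high cells, a difference of 0.22, and 0.28 between concordant pairs. It was 0.83 among untreated cells, −0.13 among dexamethasone cells, −0.06 in columns 1 to 4 and 0.21 in columns 5 to 7. Cfl1, on 19 at 5490455 to 5495201, had medians of 1782 and 1194 CPM and a difference of 0.51, and 0.48 between concordant pairs. Pfn1, on 11 at 70651850 to 70654644, had medians of 1912 and 2247 CPM and a difference of −0.10 (−0.16 between concordant pairs), which was 0.38 after TMM scaling, a correction for library composition. These classes overlapped for each of the 3 genes.

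**Figure D1:**
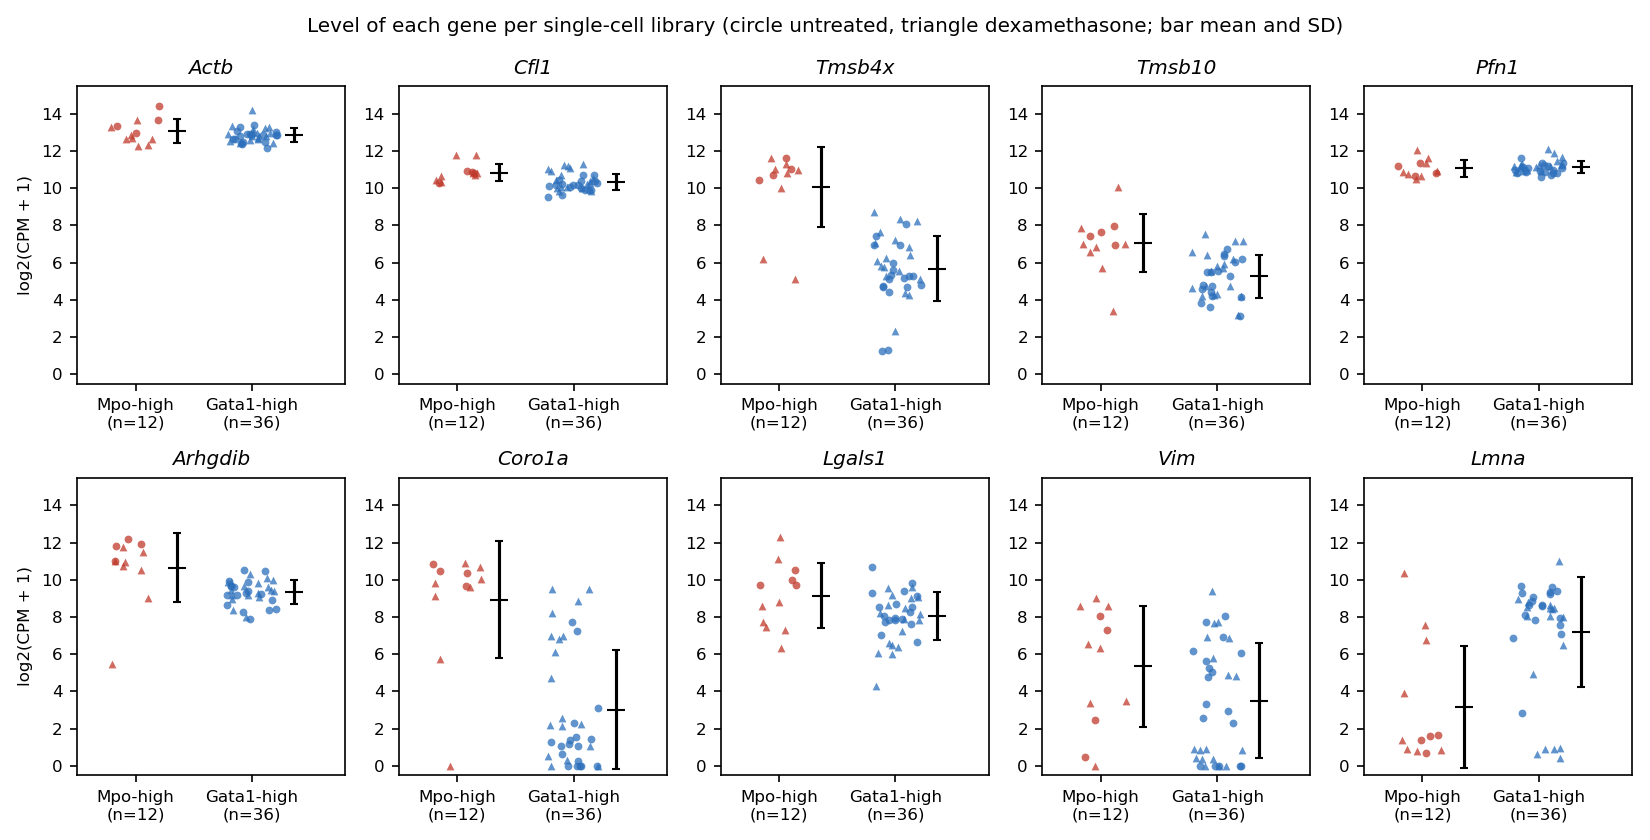
Each panel plots log2(CPM + 1) of 1 gene in the 12 Mpo-high and 36 Gata1-high libraries, circles for untreated and triangles for dexamethasone cells, with mean and SD as bars. Tmsb4x and Coro1a sit high in most Mpo-high cells and Lmna sits low, while Actb, Cfl1 and Pfn1 form narrow overlapping bands.

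With a threshold of 1 on the log2 scale, 6 of the 10 genes were higher and 1 was lower in Mpo-high cells. Over 8076 genes, those that reached 5 counts in 10 or more libraries, 5.72% were that much higher and 45.7% that much lower, with a median of −0.87. The median of all genes was −0.64 with TMM scaling and −0.42 with a pseudocount of 10. Since the genes were chosen on this contrast, nothing is read from their count. Within columns 1 to 4 and 5 to 7, the plate sets described further on, the difference was 5.13 and 4.42 for Tmsb4x, 7.18 and 5.26 for Coro1a, and −6.65 and −1.98 for Lmna. It was 1.96 and 0.66 for Arhgdib, 1.74 and 1.18 for Tmsb10, 0.17 and 0.80 for Lgals1, and 3.69 and 1.57 for Vim. For these 7 the direction was the same in both sets while the size differed. The sets held different Mpo-high cells, 4 cells of 2 pairs in columns 1 to 4 and 8 cells of 5 pairs in columns 5 to 7. What set the sizes apart was not tested. Among untreated and among dexamethasone cells it was 5.79 and 3.45 for Tmsb4x, 8.66 and 3.87 for Coro1a, −6.92 and −2.08 for Lmna, and 2.47 and 0.70 for Arhgdib. It was 2.44 and 1.35 for Tmsb10, 1.61 and 1.01 for Lgals1, and 0.87 and 2.49 for Vim. Both Mpo-high daughters of the mixed pairs were dexamethasone cells and lay in columns 5 to 7, as did dexamethasone pair 10. All 10 passed the filter, with Coro1a at 5 or more counts in 29 libraries, Vim in 30 and Lmna in 35.

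Levels between genes were set side by side only per kilobase of exon. In Gata1-high cells the median CPM per kilobase was 2756 for Actb, 934 for Pfn1, 420 for Cfl1, 395 for Arhgdib and 304 for Lgals1. Then came Lmna at 59.5, Tmsb4x at 34.2, Tmsb10 at 32.2, Vim at 1.65 and Coro1a at 0.634. By the log2 ratio of these medians, neighbours in the order differed by more than the larger of their SDs between cells only for Actb and Pfn1, Pfn1 and Cfl1, and Tmsb10 and Vim. In Mpo-high cells the medians were 2923 CPM per kilobase for Actb, 1399 for Tmsb4x and 1205 for Arhgdib, and Lmna stood last at 0.312. The SDs between these cells were 2.14 for Tmsb4x and 1.84 for Arhgdib, so the order of Actb, Tmsb4x and Arhgdib is not resolved. The library preparation is not stated in the labels, so the scaling by length assumes reads along whole transcripts.

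Other genes of the same machinery were mixed, and the counts that follow stand beside 5.72% of all 8076 genes higher and 45.7% lower by at least 1, with a median of −0.87. Of 41 actin filament, monomer and motor genes, 38 passed the filter, and 11 were at least 1 higher and 9 at least 1 lower in Mpo-high cells (median 0.22). Lsp1 and Lcp1, actin-binding proteins of leukocytes, differed by 6.38 and 5.59, and the tropomyosin gene Tpm1 by −3.34.

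In the nuclear lamina and envelope list, 0 of 9 genes were at least 1 higher and 3 were at least 1 lower (median −0.58), a smaller share lower than over all genes. Zmpste24, the protease that matures prelamin A, differed by −1.60, and Lbr, the lamin B receptor, by −1.40. Lmnb1, which encodes lamin B1, differed by −0.56, with an SD of 3.09 and 3.06 in the classes. Of 10 red cell membrane skeleton genes, 0 were at least 1 higher and 7 at least 1 lower (median −1.78), led by the adducin gene Add2 at −5.38 and the spectrin gene Sptb at −3.71. Among the galectins, Lgals9 differed by −1.23.

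The Gata1-high cells were not uniform. Lmna was below 10 CPM in 6 of the 36: both daughters of dexamethasone pairs 8 and 11, cell 2 of dexamethasone pair 13 and cell 1 of untreated pair 5. In pair 8 Lmna stood at 0.87 and 0.86 CPM, with Coro1a at 296 and 718 CPM and Tmsb4x at 329 and 297 CPM. In pair 11 Lmna stood at 0.96 and 0.32 CPM, with Coro1a at 466.4 and 738 CPM and Tmsb4x at 151 and 425 CPM. These 4 cells joined low Lmna to high Coro1a and Tmsb4x while staying Gata1-high, with Gata1 at 201, 495, 284 and 2732 CPM and Mpo at 13.8 to 20.8 CPM. Their granulocyte and monocyte list summed to 180 and 130 CPM in pair 8 and to 227 and 97.0 CPM in pair 11. The median over Gata1-high cells was 13.0 CPM. The highest sum in the class, 455 CPM, was in cell 2 of dexamethasone pair 9, whose Lmna was high.

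The pattern was not the same in the other low cells. In pair 13 Lmna was 29.1 and 0.53 CPM, and Coro1a was 126 CPM in the first daughter but 1.06 in the second. In untreated pair 5 Lmna was 6.17 and 190 CPM, and Coro1a was 7.71 and 207 CPM. The granulocyte and monocyte list summed to 78.7 and 2.64 CPM in pair 13 and to 100 and 141 CPM in untreated pair 5. Hba-a1, the alpha globin gene, was at 1.74 and 0 CPM in pair 8, at 0 and 9.19 in pair 11, at 86.1 and 58.4 in pair 13 and at 26.2 and 14.8 in untreated pair 5, against a median of 119 CPM over all Gata1-high cells. The other erythroid markers were mixed. Ermap, with a median of 238 CPM, was at 0.87 and 0 CPM in pair 8 and 0.48 and 0.32 in pair 11. In pair 13 it was at 133 and 165 CPM, and in untreated pair 5 at 69.4 and 86.4. Hbb-bt, with a median of 19.3 CPM, was at 0 and 0.43 CPM in pair 8 and at 0 in pair 11. In pair 13 it was at 35.6 and 0 CPM, and in untreated pair 5 at 0 and 4.94. Car1, a carbonic anhydrase gene with a median of 104 CPM, did not follow Hba-a1. It was at 0 and 442 CPM in pair 8, 2091 and 346 in pair 11, and 0 and 104 in pair 13. In untreated pair 5 it was at 850 and 839 CPM. Klf1, with a median of 652 CPM, was at 345 and 1321 CPM in pair 11. In pair 8 it was at 280 and 123 CPM, the last being the lowest of all Gata1-high cells. The 12 erythroid markers summed to 1460 and 1890 CPM in pair 8, 4142 and 5802 in pair 11, 4983 and 3641 in pair 13, and 2970 and 2775 in untreated pair 5, against a median of 5753 CPM. The 8 megakaryocyte markers summed to 226 to 1062 CPM in the daughters of pairs 8, 11 and untreated pair 5, but to 0.85 and 1.32 CPM in pair 13. The median over Gata1-high cells was 47.9 CPM, although cells carrying CD41, the product of Itga2b, had been removed before culture. Pairs with high Lmna had raised sums too. They were 449 and 224 CPM in dexamethasone pair 1 and 230 and 304 CPM in untreated pair 2. Mean log2(CPM + 1) of Lmna was 8.38 and 7.90 in these pairs. The platelet gene Pf4 was at 0 in pairs 8, 11 and 13, and Gp6 and Ppbp were at 0 in all 36 cells. The part of these marker lists in the Lmna and Coro1a levels was not tested.

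Across the 36 Gata1-high cells, Pearson's r with Lmna was −0.592 for Tmsb4x and −0.602 for Coro1a, and it was 0.541 between Tmsb4x and Coro1a. Over the means of the 16 pairs with 2 Gata1-high daughters, the same values were −0.663, −0.749 and 0.722. The points share plate columns, treatments and library totals, and these are descriptions.

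**Figure D2:**
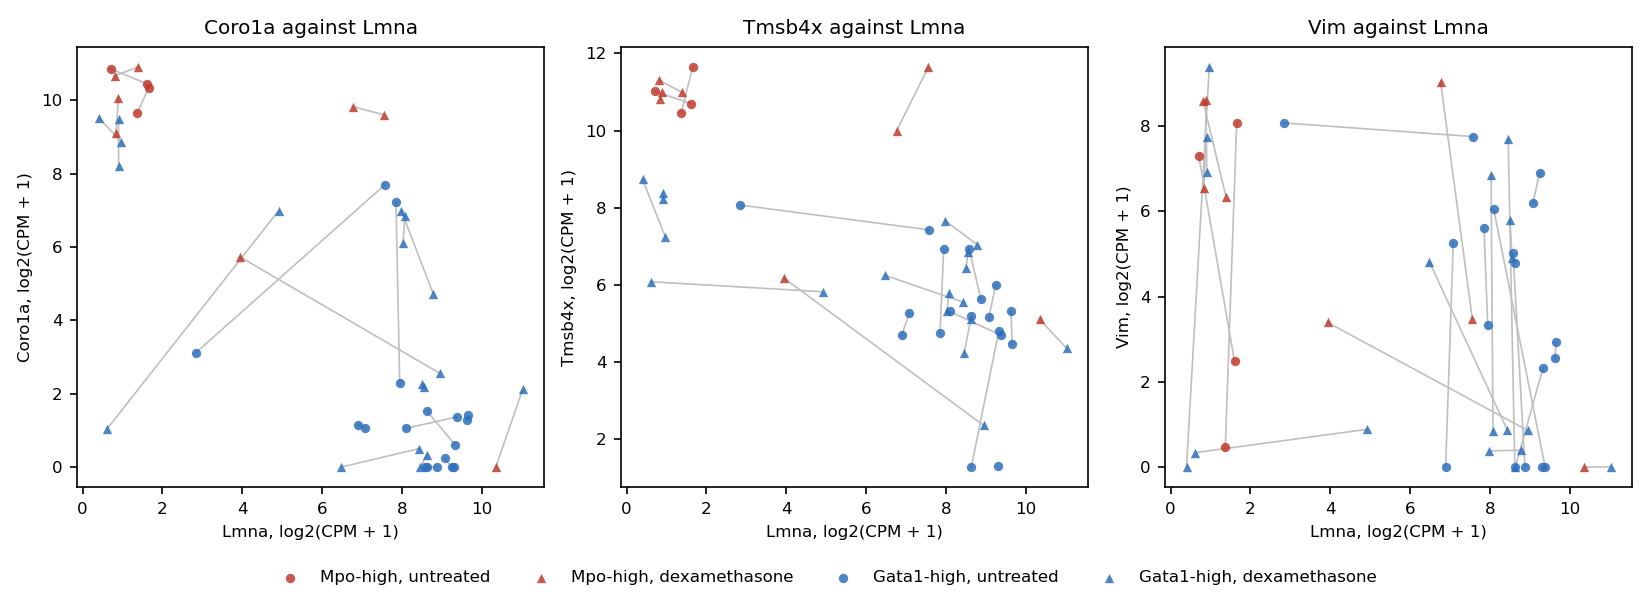
Each panel plots log2(CPM + 1) of Coro1a, Tmsb4x or Vim against Lmna in the 48 libraries, with daughters of 1 founder joined by a line. The daughters of dexamethasone pairs 8 and 11 are 4 of the 5 blue triangles at the far left, at 296 to 738 CPM of Coro1a, while the other is cell 2 of dexamethasone pair 13 at 1.06 CPM.

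Among 8076 genes, those most like Lmna over the 48 libraries were Hba-a1 (r = 0.835), Ermap (0.805), Rfesd (0.791), Blvrb (0.786) and Smim1 (0.779). Within the 36 Gata1-high cells alone they kept r of 0.778, 0.754, 0.767, 0.689 and 0.695. For Tmsb4x the nearest were Fcer1g (0.852), Prtn3 (0.845), Emb (0.832), Alox5ap (0.82) and Plac8 (0.815). Within Gata1-high cells these had r of only 0.263 to 0.417. The nearest to Vim were Usp22 (0.648), Ptpn18 (0.596), Emilin1 (0.545), Gmfg (0.542) and Wdr41 (0.541).

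The daughters of a founder were compared with cells of different founders under the same treatment. For Coro1a the median absolute difference was 0.66 between daughters and 3.94 between founders, a ratio of 0.168. For Lmna it was 0.57 against 3.14, a ratio of 0.182. Tmsb4x (0.269), Arhgdib (0.273), Tmsb10 (0.376) and Pfn1 (0.451) followed, then Lgals1 (0.542), Actb (0.623), Vim (0.683) and Cfl1 (0.735). For 6 of the 10 genes the daughters differed by at most 0.5 times as much as cells of other founders, against 24.8% of the 8076 genes, and since the rule used this measure nothing is read from that count.

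Daughters mostly shared a class. Within the 16 pairs of 2 Gata1-high daughters the ratio was 0.158 for Lmna, 0.263 for Coro1a, 0.346 for Tmsb10 and 0.370 for Arhgdib. These 4 genes were at or below 0.5, against 19.2% of all genes, and Tmsb4x was at 0.508. Against cells of the same plate column, Lmna stood at 0.392, Pfn1 at 0.530 and Cfl1 at 0.988. With TMM scaling, over all 23 pairs, Pfn1 stood at 0.687 and Lgals1 at 0.410. Vim stood at 1.22 in untreated pairs, where daughters differed more than cells of different founders, and at 0.598 in dexamethasone pairs.

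Vim was the gene on which daughters parted most often. In 10 of 23 pairs 1 daughter reached 10 CPM of Vim and the other did not, in 7 both did and in 6 neither did. In dexamethasone pair 11 cell 1 held 668 CPM and cell 2 none, where 3 counts would have been 0.951 CPM. In untreated pair 9 the daughters held 0.396 and 267 CPM, and in dexamethasone pair 4 they held 0 and 205 CPM. Coro1a parted in this way in 4 pairs, Tmsb10 in 3, and Tmsb4x and Lmna in 2 each, while Actb, Cfl1, Pfn1, Arhgdib and Lgals1 reached 10 CPM in both daughters of all 23 pairs.

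**Figure D3:**
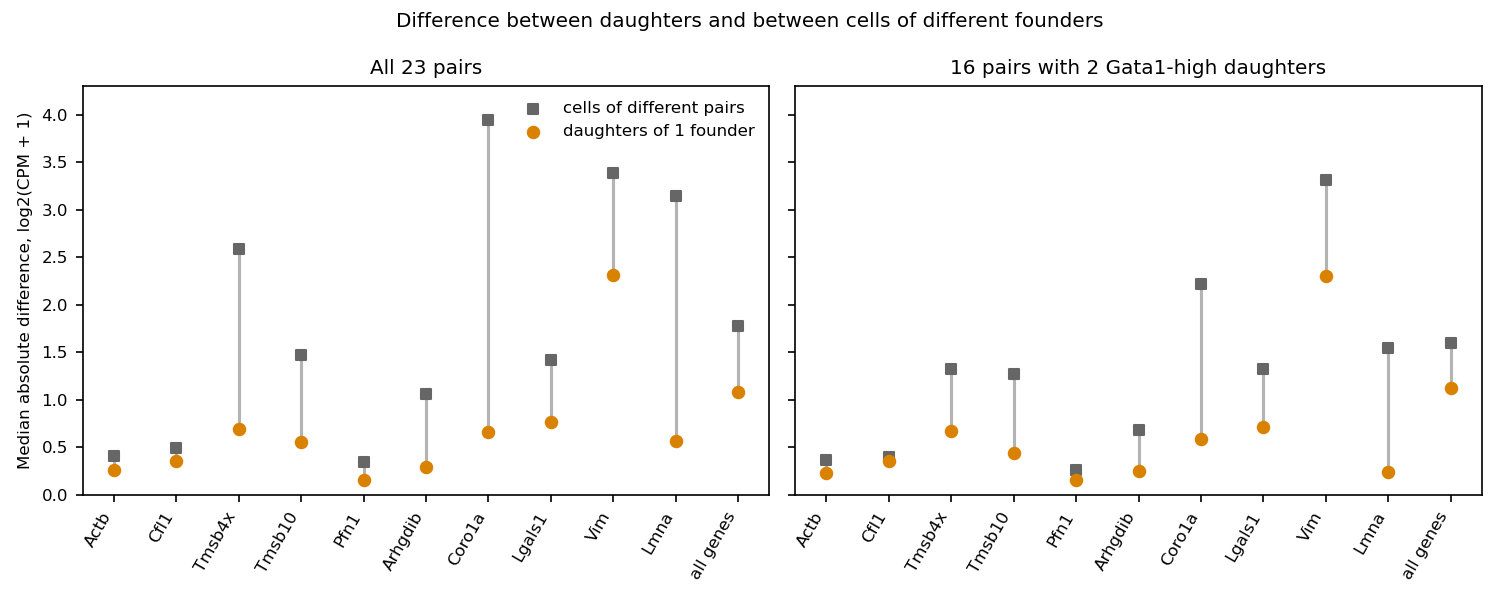
For each gene the circle gives the median absolute difference in log2(CPM + 1) between daughters and the square that between cells of different founders, over 23 pairs (left) and 16 pairs with 2 Gata1-high daughters (right). Coro1a and Lmna show long gaps, and Vim has the largest difference between daughters.

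Dexamethasone was compared with no addition over 10 untreated and 13 dexamethasone pairs. The mean log2(CPM + 1) of Tmsb4x per pair ran from 3.03 to 11.05 (median 5.70) untreated and from 4.26 to 11.15 (median 6.63) with dexamethasone. The groups overlapped over nearly their whole range. The means were 6.52 ± 2.62 (SD, n = 10) and 7.25 ± 2.45 (SD, n = 13), a difference of 0.72. In pairs with 2 Gata1-high daughters it was 1.13, at 5.41 ± 1.35 and 6.54 ± 1.26 (SD, n = 8 pairs each). The highest dexamethasone values among them, 8.29 and 7.99, came from pairs 8 and 11, the pairs with low Lmna in both daughters. In pairs with 2 Mpo-high daughters the means were both 10.96 (n = 2 and 3).

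The Tmsb4x difference was also taken within each set of plate columns. The column is the number in the library name, each number goes with 1 index sequence, and untreated pairs held columns 1, 2, 5 and 6 while dexamethasone pairs held 3, 4, 6 and 7. In columns 1 to 4 the Tmsb4x difference was 2.10 (n = 6 and 8), and in columns 5 to 7 it was −1.37 (n = 4 and 5). In columns 1 to 4 all Mpo-high cells were dexamethasone cells, 4 of them, and in columns 5 to 7 there were 4 of each treatment. Within Gata1-high pairs the differences were 0.94 (n = 6 and 6) and 1.70 (n = 2 and 2).

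The test of all genes was edgeR's quasi-likelihood test on counts summed per pair, with Benjamini-Hochberg adjustment over 7190 genes. It called 0.0% of genes changed by dexamethasone, with 71 at an unadjusted p under 0.05, and DESeq2 also called 0, with 173. The p-values measure the spread between founder pairs. Cfl1 had a log2 fold change of 0.40 ± 0.21 (SE), Pfn1 0.27 ± 0.17, Tmsb10 0.61 ± 0.68, Vim 0.66 ± 1.00 and Coro1a 0.22 ± 1.41, each with an edgeR adjusted p of 1.00. Lmna had −0.12 ± 1.00, Arhgdib −0.38 ± 0.47, Actb −0.09 ± 0.24 and Lgals1 0.03 ± 0.59, with the same adjusted p. These errors leave room for large changes in either direction in Lmna, Coro1a and Vim. Tmsb4x is described above and is given no p, since its treatment difference was used to choose it.

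Among the listed genes edgeR called 0 of 37 actin filament genes, 0 of 7 lamina genes, 0 of 9 red cell skeleton genes and 0 of 2 galectins. The cytoplasmic gamma actin gene Actg1 was the 1 with an unadjusted p under 0.05, at −0.59 ± 0.24 and an adjusted p of 1.00. A treatment by plate set term was also fitted, and edgeR called 0 of 7190 genes with 451 at an unadjusted p under 0.05. In that fit Arhgdib had the smallest p of the 10, at −2.31 ± 0.78 (adjusted p = 0.407).

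Lmna and Coro1a per pair show where the spread lies. In pairs with 2 Gata1-high daughters Lmna ran from 5.21 to 9.64 (median 8.73) untreated and from 0.68 to 8.54 (median 7.75) with dexamethasone. Coro1a ran from 0 to 5.41 (median 1.16) and from 0.17 to 9.20 (median 4.94). The lowest Lmna and highest Coro1a values of the dexamethasone group came from pairs 8 and 11, and the groups overlapped. Without pairs that hold a Mpo-high daughter edgeR gave Coro1a 3.30 ± 1.62 and Lmna −1.08 ± 0.88, both with an adjusted p of 1.00.

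**Figure D4:**
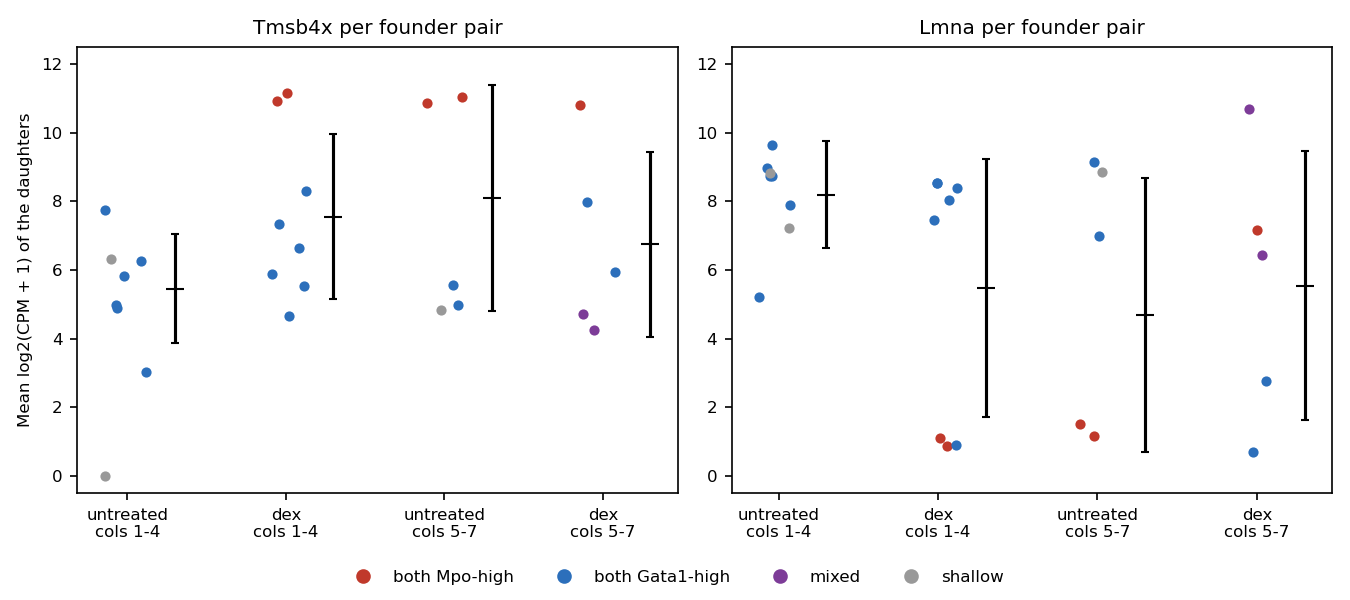
Each point is the mean log2(CPM + 1) of Tmsb4x (left) or Lmna (right) in the daughters of 1 founder, by treatment and set of plate columns, with mean and SD of the 23 deep pairs as bars. Mpo-high pairs make the upper Tmsb4x group near 11 and 4 of the 5 sit at the bottom for Lmna, beside dexamethasone pairs 8 and 11 with 2 Gata1-high daughters.

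The sets of plate columns were compared with treatment as a covariate. Per pair, Lgals1 ran from 6.03 to 9.56 in columns 1 to 4 (n = 14) and from 7.71 to 11.72 in columns 5 to 7 (n = 9), with means of 7.63 ± 0.97 and 9.46 ± 1.13 (SD). Pfn1 had means of 10.99 ± 0.20 and 11.37 ± 0.34, and 6 of the 9 later pairs lay above all 14 earlier ones. Cfl1 had means of 10.26 ± 0.29 and 10.81 ± 0.40, and Actb 12.77 ± 0.26 and 13.15 ± 0.46, with overlap in both.

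In edgeR the log2 fold changes were 2.31 ± 0.41 (SE) for Lgals1, 0.59 ± 0.12 for Pfn1, 0.72 ± 0.15 for Cfl1 and 0.77 ± 0.19 for Actb. These 4 of the 10 genes were among those called higher in columns 5 to 7, where 1.03% of the 7190 genes were called higher and 0.167% lower. The genes were chosen on this contrast, so nothing is read from the count. Of the listed genes, Twf1, Myl6 and Banf1 were called, at 1.60, 1.46 and 0.71. Tmsb10 had 1.99 ± 0.56.

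The classes move with these sets, since 8 of the 12 Mpo-high cells lay in columns 5 to 7. Without pairs that hold a Mpo-high daughter, the changes were 1.61 ± 0.42 for Lgals1, 0.58 ± 0.15 for Pfn1, 0.47 ± 0.16 for Cfl1 and 0.32 ± 0.15 for Actb. These 4 genes were no longer among the genes called, where 9 of 7247 genes were called higher. With RLE scaling the changes were 2.14, 0.47, 0.60 and 0.66, and of the 4 only Lgals1 was among the genes called. The fit without Mpo-high pairs held fewer pairs, 12 against 4. The genes were chosen on this contrast, so nothing is read from kept or lost calls. The calls over all genes split into 74 higher and 12 lower, into 32 and 11 with RLE scaling, and into 124 and 219 in DESeq2, while the median of all genes moved from −0.02 to −0.15 in both. In the Gata1-high pairs (12 against 4) the set difference was 1.66 for Lgals1, 1.32 for Tmsb10 and −2.69 for Lmna.

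**Figure D5:**
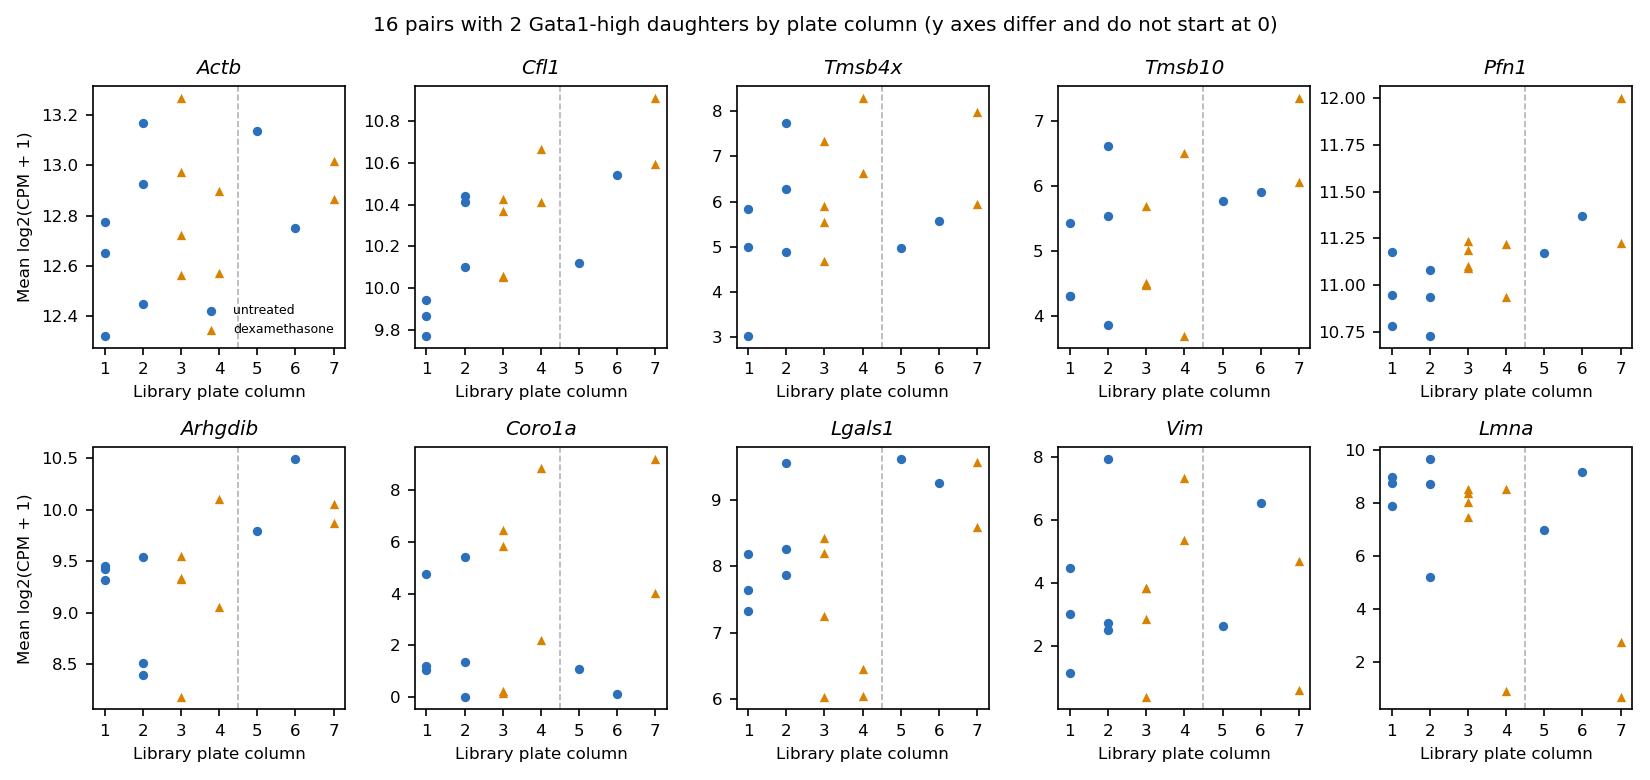
Each panel plots the mean log2(CPM + 1) of 1 gene for the 16 pairs with 2 Gata1-high daughters by plate column, with a dashed line between columns 4 and 5. The 4 pairs to the right of the line sit at 8.59 or higher for Lgals1, and the 2 dexamethasone pairs in column 7 are low for Lmna.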

How the data were processed

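The deposited files hold unnormalized whole-number counts for each gene in 52 single-cell libraries, in a table for each treatment. STAR 2.4, featureCounts and build GRCm38 are named in the submitters' processing notes. Library preparation and the settings for strand and multiply mapped reads were not found in the labels, so genes with processed pseudogenes, such as Actb and Cfl1, have an uncertain share of reads, and reads of overlapping genes cannot be told apart. Each table column matched 1 sample, 0 columns were unused and no 2 libraries were identical. Gene positions came from GENCODE M21 on GRCm38.

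Libraries under 100000 counts were left out of the main comparisons. Counts of the 2 daughters were summed per founder pair and tested with edgeR 4.0.16 (R 4.3.3): filterByExpr with a minimum count of 10, TMM scaling, glmQLFit, glmQLFTest, and Benjamini-Hochberg adjustment with a threshold of 0.05. The standard error is the fold change divided by the square root of F. DESeq2 1.42.0 was an alternative. Cell values were log2(CPM + 1). Tested on simulated data for the dexamethasone comparison with 6807 genes, edgeR recovered 20 of 94 genes changed by 2 on the log2 scale and 60 of 95 changed by 4, with 2 false calls.

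The genes, lists and markers were chosen with earlier results of these data known. The text names the 10 genes, Mpo and Gata1, up to 4 genes per list by edgeR p and up to 4 by lineage difference, and the 5 genes most like Tmsb4x, Lmna and Vim. The markers Klf1, Car1, Ermap, Hbb-bt, Hba-a1, Itga2b, Pf4, Gp6 and Ppbp were named after their values were seen. The same holds for the granulocyte and monocyte markers other than Mpo, and for Lmnb1, Twf1, Myl6 and Banf1. Results for 1 further gene list and for 1 listed gene are not reported here. Pair numbers did not pair the treatments.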

Additional observations from a re-analysis of the deposited data

Results flagged for a closer look

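Cfl1 gave a signal in a library that the main comparisons did not use. In untreated pair 12, cell 2, which held 11791 counts in all, Cfl1 had 2081 counts, or 176490 CPM (exact Poisson 95% interval 168990 to 184240, counting error only). That is 17.6% of the library, against a highest value of 1924 CPM among the untreated libraries with at least 100000 counts. The other members of the group in that library included Actb at 6530 CPM and Pfn1 at 1611 CPM. Its cause was not tested.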

How the results depend on the processing

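The count of genes changed by dexamethasone was 0 in every edgeR setting. It became 2 of 6429, Mpo and Tmsb4x, in DESeq2 with all pairs, an added setting that takes in untreated pairs 4, 7 and 12. Tmsb4x was chosen on this contrast, so nothing is read from its call. The count between plate sets was 86, and 343 in DESeq2, 43 with RLE scaling and 27 without pairs that hold a Mpo-high daughter. Dexamethasone log2 fold changes that turned sign, none of them called, were as follows. Actb was 0.042 with all pairs, 0.14 without Mpo-high pairs, 0.14 in columns 1 to 4 and 0.045 in DESeq2 with all pairs. In columns 5 to 7 Lmna was 1.44, Coro1a −1.29 and Tmsb4x −1.36. Lgals1 was −0.028 without a filter, −0.58 without Mpo-high pairs, −0.33 with the plate covariate and −0.73 in columns 1 to 4. Arhgdib was 0.057 without Mpo-high pairs, 0.074 with the covariate, 1.02 in columns 1 to 4 and 0.00055 in DESeq2 with all pairs. Pair numbers gave correlations of −0.102 to 0.109 over 10 shared numbers, so they do not pair the samples. The replicate block called 0 of 6820 genes (edgeR; 130 at an unadjusted p under 0.05) and gave Lgals1 −0.67 and Vim −0.064, and the same pairs without the block gave Coro1a −0.064 and Tmsb4x −0.073. Leaving out each pair in turn gave ranges of −0.27 to 0.16 for Actb, −0.60 to 0.15 for Arhgdib, −0.34 to 1.27 for Coro1a, −0.90 to 0.22 for Lgals1, −0.81 to 0.14 for Lmna, −0.15 to 1.04 for Tmsb10 and −0.36 to 1.02 for Tmsb4x. Lmna between plate sets was −1.65 without Mpo-high pairs. Lineage differences that turned sign were Actb, −0.13 in dexamethasone cells and −0.057 in columns 1 to 4, and Pfn1, 0.38 with TMM scaling. The causes of these changes were not tested. The 7 lineage differences of at least 1 in size kept their direction in all 12 settings. The class thresholds of 1 and 50 CPM gave the same values as the main setting, so they could not differ. Sizes did change, and Lgals1 was 0.17 in columns 1 to 4. Since the genes were chosen on this contrast, nothing is read from that count. Depth limits Coro1a, Vim and Lmna at their low end, where 1 CPM is a few reads.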
